A study of Homo sapiens with 6 samples.

Results

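The proteasome genes were followed in AC16 cells, an established human line derived from fusions of cardiomyocytes of the adult ventricle with fibroblasts transformed by SV40. They were taken as every row whose gene name is PSM, a single letter from A to G and then digits only, which left out pseudogenes, antisense transcripts and PSMC3IP. This gave 47 of 29638 gene rows. The data comprised 6 bulk RNA sequencing libraries of wild-type cells, 3 given ethanol (control 1 to 3) and 3 given a fatty acid (PA 1 to 3). The series title calls the fatty acid palmitic acid and the treatment label calls it palmitelaidic acid, so it is written PA here. The sources used here give neither dose nor exposure time, nor say whether replicates were cultured separately, so that the spread behind each p-value may be technical.

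The proteasome is the protease complex that degrades ubiquitin-tagged proteins in the cytosol and nucleus. Its barrel-shaped core is a stack of rings: outer rings of alpha subunits, which gate the entry, and inner rings of beta subunits, of which PSMB5, PSMB6 and PSMB7 cut peptide bonds. A regulatory particle of a base, with an ATPase ring that unfolds the substrate, and a lid, which removes ubiquitin, caps the core. In cells exposed to interferon the catalytic subunits are replaced in newly built cores by PSMB8 (for PSMB5), PSMB9 (for PSMB6) and PSMB10 (for PSMB7), which gives the immunoproteasome, and an alternative cap of PSME1 and PSME2 is made. These forms are known for producing peptides for class I antigen presentation, and cardiac muscle depends on proteasomes for turnover of contractile and oxidised proteins.

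Values were RPKM, that is, reads scaled to transcript length and to library total, as deposited. Read depth itself is unknown. The spacing of low values put PA 1 at 1.16 times the others, and each of those between 0.928 and 0.999 times the rest. The RPKM sums per library lay between 733025 and 881369, the highest in PA 3. Across the 14159 genes with a mean of at least 1 RPKM, PA 3 had the lowest mean correlation with its own group (0.971, against 0.974 to 0.980 for the other libraries), and 22 of the proteasome genes had their highest value there, so the class medians are given with and without it. Cardiomyocyte markers were nearly absent. Of 13 cardiomyocyte markers examined, TNNI3, a troponin subunit, alone passed the expression filter and it rose, from 0.913 ± 0.418 to 3.3 ± 0.695 RPKM (1.18 on the log2 scale, limma adjusted p = 0.0288). MYH6 and MYH7 were at most 0.06 RPKM in every library, and TNNT2 was listed at 0 in the 3 control libraries.

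Of the 47 genes, 46 passed the filter and were tested with limma on log2(RPKM + 1), with p-values adjusted over all 14159 genes. PSMB11, the core subunit of the thymus, was at most 0.11 RPKM in any library and was not tested. The other 46 were well expressed, with mean RPKM from 22.2 (PSMB10) to 694.3 (PSMA7). In these bulk samples fewer cells of a kind and less RNA per cell cannot be told apart.

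PSMB9 and PSME1 were higher and PSMC2 and PSMD1 were lower in PA at an adjusted p below 0.05. These 4 genes are 8.70% of the 46 tested, where 4.81% of all genes passed (2.84% higher and 1.97% lower). All 3 PA values lay on a single side of all 3 control values in 16 of the 46 genes, 34.8%, against 32.6% of all genes, and 12 of the 46 had an unadjusted p below 0.05, 26.1% against 25.9%. These shares stood close to the background. The median log2 fold change was -0.009 beside -0.019 for all genes tested, and without PA 3 it was -0.085 beside 0.0027. The classes did not share a direction. The 3 immunoproteasome subunits had a median of 0.55 (0.46 without PA 3) and the 17 base and lid subunits -0.18 (-0.19 without PA 3). The 14 constitutive core subunits had 0.026, which turned to -0.043 without PA 3. The 4 activators had 0.04 (-0.035 without PA 3), the 4 core assembly chaperones 0.17 (-0.062 without PA 3) and the 3 base assembly chaperones -0.14 (-0.16 without PA 3). Leaving out any of the 6 libraries, control or PA, ended the calls of PSMB9, PSME1 and PSMC2 (limma adjusted p-values of all alternative fits reached 0.169, 0.157 and 0.192), and PSMD1 kept its call without PA 3 alone.

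**Figure D1:**
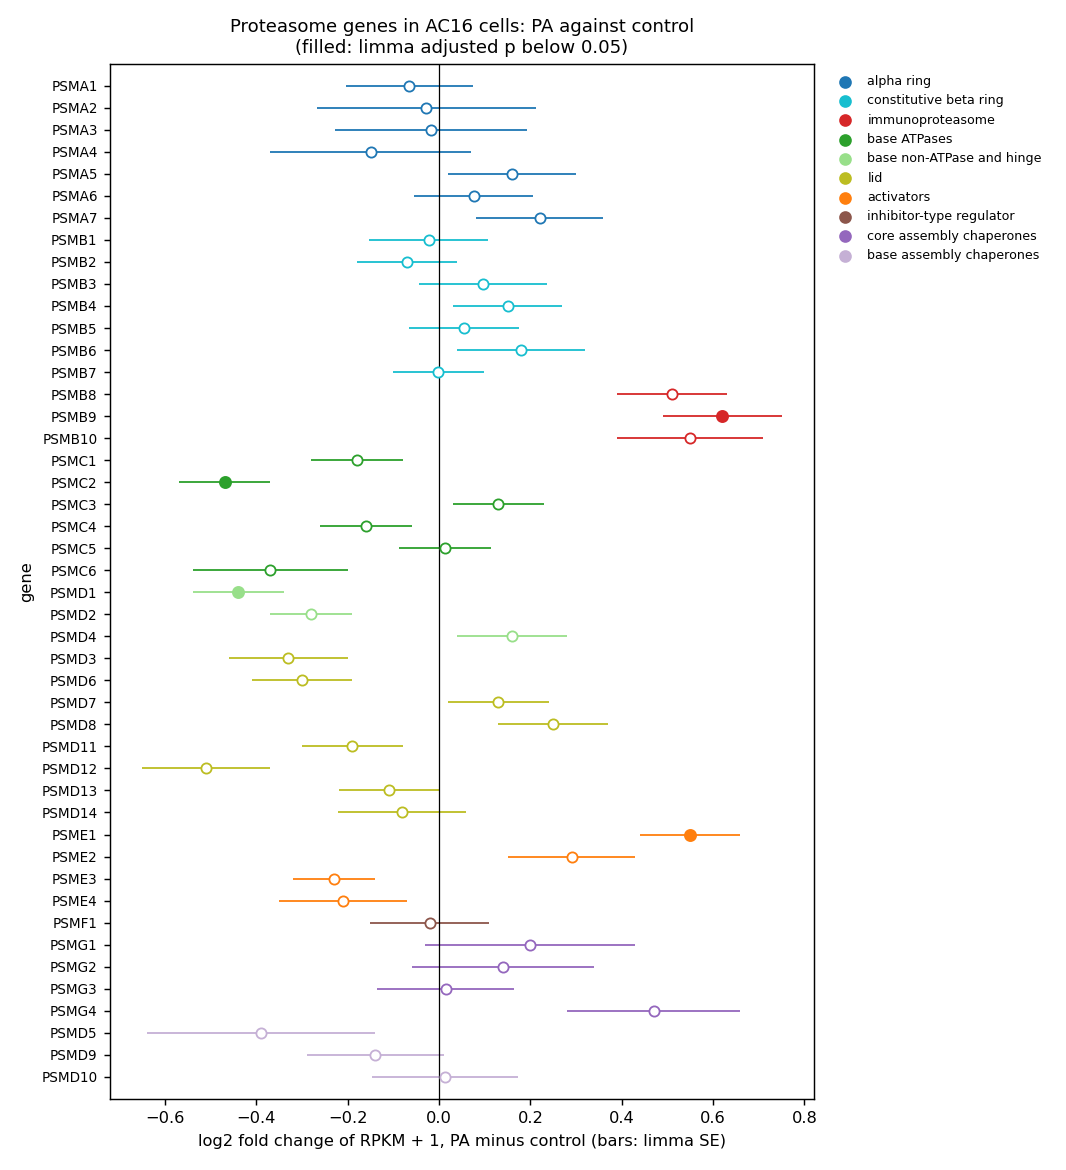
Log2 fold change of RPKM + 1 (x axis, PA minus control) for the 46 tested proteasome genes (y axis), coloured by class, with limma standard errors as bars and filled points for an adjusted p below 0.05. The immunoproteasome genes lie between 0.51 and 0.62, and the constitutive core between -0.15 and 0.22.

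The immunoproteasome subunits PSMB8, PSMB9 and PSMB10 all had their 3 PA values above their 3 control values, as did 16.7% of all genes tested. PSMB9, which takes the place of PSMB6, the subunit with the caspase-like site, was at 22.0, 29.7 and 23.2 RPKM in control 1 to 3 and at 37.9, 37.3 and 40.4 RPKM in PA 1 to 3. The mean rose from 25 ± 4.14 to 38.5 ± 1.64 RPKM (SD, n = 3 each), by 0.62 ± 0.13 (SE) on the log2 scale (limma adjusted p = 0.0419). The lowest PA library was above the highest control library, control 2.

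PSMB8, which replaces the subunit with the chymotrypsin-like site, was the most abundant of these subunits, at 53.2, 56.7 and 46.6 RPKM in control and 69.9, 71.0 and 82.8 RPKM in PA. The groups were apart and PA 3 was highest. Its log2 fold change of 0.51 ± 0.12 missed the threshold (limma adjusted p = 0.0524). It passed in 4 of 17 alternative fits, with adjusted p-values from 0.0298 to 0.178.

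PSMB10, which replaces the subunit with the trypsin-like site, was at 18.7, 20.9 and 14.1 RPKM in control and 23.3, 26.2 and 30.03 RPKM in PA. Control 3 was lowest and PA 3 highest, with no overlap. The log2 fold change was 0.55 ± 0.16 (limma adjusted p = 0.0893), and it passed in 0 of 17 alternative fits. Over all settings that left out a library, the log2 fold changes stayed between 0.40 and 0.74 for these 3 genes, and a fit with the trend on length and GC content taken out gave 0.44 for PSMB8, 0.53 for PSMB9 and 0.42 for PSMB10.

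Exons of PSMB8 and PSMB9 share 139 bases on opposite strands in GENCODE 29, which is 4.64% of the exon bases of PSMB8 and 4.52% of those of PSMB9. Whether reads were counted by strand is not stated in these sources, so part of their reads may not be separable. The antisense transcript PSMB8-AS1, which overlaps exons of both, averaged 3.74 ± 0.61 RPKM without PA and 3.28 ± 0.557 with it (log2 fold change -0.15, limma adjusted p = 0.587). PSMB10 shares 644 exon bases with AC040162.1 on the same strand, which averaged 1.96 ± 0.471 RPKM in control libraries and 1.24 ± 0.0839 RPKM with PA (log2 fold change -0.39, limma adjusted p = 0.181).

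**Figure D2:**
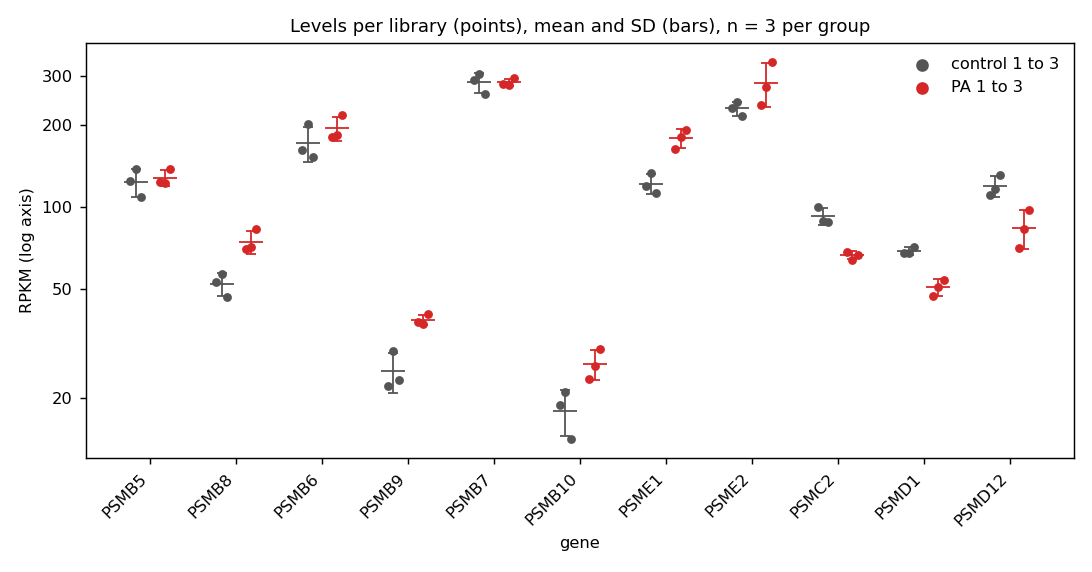
RPKM (y axis, log scale) of 11 proteasome genes (x axis) in each control (grey) and PA (red) library, with mean and SD for n = 3 per group. Each constitutive catalytic subunit stands beside its immunoproteasome replacement; PSMB8, PSMB9, PSMB10 and PSME1 lie higher in all PA libraries, and PSMC2, PSMD1 and PSMD12 lower.

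The values of the constitutive catalytic subunits overlapped between the groups, and none passed. PSMB5 was at 123.9, 137.6 and 108.7 RPKM in control and 123.4, 122.4 and 137.4 RPKM in PA, with the groups interleaved (log2 fold change 0.054 ± 0.12, limma adjusted p = 0.804). PSMB6 was at 161.1, 200.2 and 151.8 RPKM in control and 180.8, 183.2 and 216.5 RPKM in PA (0.18 ± 0.14, limma adjusted p = 0.424). PSMB7 was at 291.6, 306.8 and 259.8 RPKM in control and 281.3, 279.1 and 295.0 RPKM in PA (-0.0014 ± 0.10, limma adjusted p = 0.994). The sign of PSMB5 turned when values were rescaled to a common sum (-0.053), and that of PSMB7 in several fits; both values lie near 0.

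A ratio of RPKM taken within a library is not moved by a scaling factor common to all its genes. PSMB8 was at 42.9%, 41.2% and 42.9% of PSMB5 in control 1 to 3 and at 56.6%, 58.0% and 60.3% in PA 1 to 3. PSMB9 was at 13.7%, 14.8% and 15.3% of PSMB6 in control and at 21.0%, 20.4% and 18.7% in PA. PSMB10 was at 6.42%, 6.82% and 5.42% of PSMB7 in control and at 8.29%, 9.37% and 10.2% in PA. All 3 ratios were higher in every PA library than in every control library. On the log2(RPKM + 1) scale the differences were 0.45, 0.43 and 0.55, each with an exact permutation p of 0.1 (two-sided, n = 3 per group), the smallest value that 3 against 3 allows; no adjustment over the 3 ratios could lower it. After quantile normalization, which is no common factor, the differences were 0.47, 0.55 and 0.69. The spread within a group was small beside these differences, with SDs of the log2 ratio between 0.034 and 0.16. Summed, PSMB8, PSMB9 and PSMB10 made up 14.1% ± 0.199 of the RPKM of all 6 catalytic subunit genes in control and 18.7% ± 0.402 in PA (SD, n = 3). Transcripts of the constitutive catalytic subunits thus made up most of the total in both groups.

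**Figure D3:**
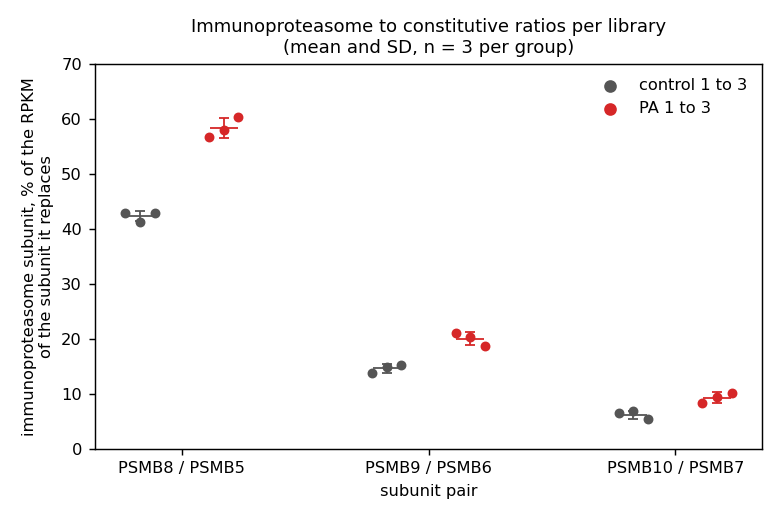
RPKM of each immunoproteasome subunit as a percentage of the constitutive subunit it replaces (y axis, from 0) for 3 pairs (x axis) in control (grey) and PA (red) libraries, with mean and SD, n = 3 per group. PSMB8 reaches 56.6% to 60.3% of PSMB5 in PA and 41.2% to 42.9% in control.

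Among the alternative caps, PSME1 was higher in PA. PSME1, a subunit of the interferon-inducible activator ring, was at 119.5, 132.6 and 112.3 RPKM in control and 163.0, 180.2 and 190.6 RPKM in PA. Its mean rose from 121.5 ± 10.3 to 177.9 ± 13.9 RPKM, by 0.55 ± 0.11 on the log2 scale (limma adjusted p = 0.0369). Every PA library was above every control library. PSME2, its partner in that ring, was at 229.3, 242.8 and 215.8 RPKM in control and 236.7, 273.6 and 340.2 RPKM in PA. PA 1 lay below control 2, and the log2 fold change of 0.29 ± 0.14 did not pass (limma adjusted p = 0.241) and was 0.15 without PA 3. PSME1 was thus at 0.521, 0.546 and 0.520 times PSME2 in control and at 0.689, 0.659 and 0.560 times in PA.

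PSME3, which forms a nuclear activator ring of its own, was at 193.7, 189.7 and 190.2 RPKM in control and 166.5, 161.2 and 160.3 RPKM in PA. The groups were apart, with little spread in either, and the log2 fold change was -0.23 ± 0.09 (limma adjusted p = 0.148, or 0.0346 with the trend on length and GC content taken out). PSME4, a large single-chain activator, averaged 23.9 ± 2.6 RPKM in control libraries and 20.6 ± 2.89 RPKM with PA with overlapping groups (-0.21 ± 0.14, limma adjusted p = 0.362). PSMF1, a regulator first described as an inhibitor of the core, was at 51.9 ± 4.48 and 51.2 ± 6.22 RPKM (-0.021 ± 0.13, limma adjusted p = 0.933). On the opposite strand, 300 exon bases of PSME3 are shared with BECN1, which averaged 81.4 ± 4.34 RPKM in control libraries and 103.5 ± 3.1 RPKM with PA (0.34, limma adjusted p = 0.0742). PSME1 shares 9 exon bases with EMC9, at 23 ± 1.16 and 27.2 ± 1.21 RPKM (0.23, limma adjusted p = 0.187), and PSME2 shares 216 with RNF31, at 28 ± 3.94 and 29.1 ± 6.71 RPKM (0.033, limma adjusted p = 0.932).

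Promoter windows were searched for GAAANNGAAA, the core of the interferon-stimulated response element, on both strands, because the immunoproteasome and PSME1 genes are textbook interferon targets. RefSeq windows of 300 bases, from 250 before to 50 after the start (GRCh38.p14), were at hand for 41 of the 47 genes. The motif was present in 6 of the 41, 14.6%, against 3.65% of 27305 promoters of the same length and 2.72% of the 9770 that belong to tested genes. In PSMB10, PSME1, PSME2 and PSMG4 the match had the same letters, GAAAGCGAAA, a form found in 30 of all the windows, 0.11%. That form was singled out after the matches were seen. The windows of these 4 genes and of PSMB8 and PSMB9 are shown 5′ to 3′ on the gene's strand, with the match in capitals (in PSME1 it is on the other strand, so it reads as its reverse complement); the windows of PSMB8 and PSMB9 hold no match.
PSMB10, chr16:67936801-67937100, minus strand: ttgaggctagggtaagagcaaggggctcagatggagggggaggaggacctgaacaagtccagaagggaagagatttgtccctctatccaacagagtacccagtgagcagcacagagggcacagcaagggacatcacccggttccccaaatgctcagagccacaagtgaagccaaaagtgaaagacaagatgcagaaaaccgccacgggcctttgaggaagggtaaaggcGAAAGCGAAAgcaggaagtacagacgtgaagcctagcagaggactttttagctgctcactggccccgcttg
PSME1, chr14:24135944-24136243, plus strand: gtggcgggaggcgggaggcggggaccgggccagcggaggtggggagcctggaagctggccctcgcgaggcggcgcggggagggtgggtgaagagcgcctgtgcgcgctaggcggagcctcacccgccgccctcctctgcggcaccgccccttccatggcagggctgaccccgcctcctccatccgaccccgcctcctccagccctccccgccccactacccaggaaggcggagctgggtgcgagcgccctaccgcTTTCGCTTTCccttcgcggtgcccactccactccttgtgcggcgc
PSME2, chr14:24146561-24146860, minus strand: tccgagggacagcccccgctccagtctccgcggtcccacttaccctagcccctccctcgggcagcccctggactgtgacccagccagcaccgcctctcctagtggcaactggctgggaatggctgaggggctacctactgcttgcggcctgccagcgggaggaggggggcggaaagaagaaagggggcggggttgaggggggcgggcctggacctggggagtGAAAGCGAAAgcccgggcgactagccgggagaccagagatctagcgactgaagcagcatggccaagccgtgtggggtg
PSMG4, chr6:3258697-3258996, plus strand: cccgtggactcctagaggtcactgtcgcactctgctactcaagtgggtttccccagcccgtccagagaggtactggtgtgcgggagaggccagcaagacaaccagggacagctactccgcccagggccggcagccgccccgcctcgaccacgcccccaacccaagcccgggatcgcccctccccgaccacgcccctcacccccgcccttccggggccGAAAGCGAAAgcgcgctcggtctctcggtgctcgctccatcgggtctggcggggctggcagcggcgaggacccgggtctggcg
PSMB8, chr6:32844630-32844929, minus strand: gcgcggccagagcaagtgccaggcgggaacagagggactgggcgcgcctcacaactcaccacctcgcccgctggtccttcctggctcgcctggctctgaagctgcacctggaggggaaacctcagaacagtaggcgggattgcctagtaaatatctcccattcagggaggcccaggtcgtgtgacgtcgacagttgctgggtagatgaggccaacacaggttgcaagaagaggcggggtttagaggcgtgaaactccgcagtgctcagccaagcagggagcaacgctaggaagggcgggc
PSMB9, chr6:32853942-32854241, plus strand: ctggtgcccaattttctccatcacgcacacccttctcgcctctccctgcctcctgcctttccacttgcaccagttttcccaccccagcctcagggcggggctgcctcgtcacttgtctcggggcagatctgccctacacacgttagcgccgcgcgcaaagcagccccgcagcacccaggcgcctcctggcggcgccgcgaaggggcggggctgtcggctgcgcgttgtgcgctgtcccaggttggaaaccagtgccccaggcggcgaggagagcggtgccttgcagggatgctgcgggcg

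The 4 genes with GAAAGCGAAA had log2 fold changes of 0.55 (PSMB10), 0.55 (PSME1), 0.29 (PSME2) and 0.47 (PSMG4), of which PSME1 alone passed. The 22 tested genes with this form include these 4. Of the 22, 1 was higher (PSME1) and 2 were lower in PA, with a median of -0.026. Of the 266 with GAAANNGAAA, 8 were higher and 7 lower, with a median of -0.049. Over all genes tested 2.84% were higher and 1.97% lower, and the median of those with a window was -0.022. PSMA4 (-0.15) and PSMB4 (0.15), the other members with GAAANNGAAA, did not pass. TGACNNNGC, the core of the antioxidant response element bound by NFE2L1 and NFE2L2, was found in 13 of the 41 windows, 31.7% against 13.6% of all promoters. It occurred in PSMB9, PSME1 and PSMD1 but not in the window of PSMC2. CCAAT was found in 19 of them, 46.3% against 35.7%, TTCNNNGAA, the gamma-activated site, in 4 (9.76% against 7.88%) and GGGNNTTTCC, a form of the NF-kB site, in 1 (2.44% against 1.92%). These motifs do not overlap in the windows shown, and a match is a description of letters.

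In the constitutive core 0 of 14 genes passed limma, and 0 had an unadjusted p below 0.05. Of the 14 genes, 10 had their highest value in PA 3. In the alpha ring, all 7 genes had their highest value in PA 3, and PA 1 or PA 2 held the lowest value of PSMA1, PSMA2, PSMA3, PSMA4 and PSMA6. The median log2 fold change of the alpha ring was -0.017 with all libraries and -0.21 without PA 3; it was 0.14 in the fit at the other end of that range, so the ring has no stable sign. PSMA4, the lowest of the ring by fold change, was at 273.5, 306.8 and 344.7 RPKM in control and 222.8, 237.7 and 401.6 RPKM in PA. PA 1 and PA 2 lay below and PA 3 above all control libraries (log2 fold change -0.15 ± 0.22, limma adjusted p = 0.705, or -0.41 without PA 3). PSMA7, the highest of the ring by fold change and by level, averaged 642.7 ± 99.1 RPKM in control libraries and 746.0 ± 65.4 RPKM with PA (0.22 ± 0.14, limma adjusted p = 0.337).

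The constitutive beta ring had a median log2 fold change of 0.054, or 0.00067 without PA 3. Beside the catalytic subunits, PSMB2, the lowest of this ring by fold change, averaged 95 ± 9.97 RPKM in control libraries and 90.2 ± 0.763 RPKM with PA (-0.07 ± 0.11, limma adjusted p = 0.712; 0.06 with that trend taken out). The 14 core genes, whose products are present in equal number in each core, were spread in RPKM from 65.7 (PSMA5) to 694.3 (PSMA7). Set against the mean log2 level of these 14 genes in the same library, PSMB8, PSMB9, PSMB10, PSME1, PSME2 and PSMG4 were above their control values in all PA libraries, and PSMB1, PSMC1, PSMC2, PSMC6, PSMD1, PSMD2, PSMD3, PSMD6, PSMD12 and PSMD13 were below. These are 6 and 10 of 46 genes, 13% and 21.7%, where 10.9% of all genes so scaled lay above and 10.6% below. The 46 include the 14 core genes that set the reference, PSMB1 among them. The deviations of those 14 cancel out in each library by construction, so the shares are not on like terms with those of all genes. In that scaling PSMB9 moved from -2.72 to -2.15 and PSME1 from -0.48 to 0.027 on the log2 scale, differences of 0.57 and 0.50, and neither passed limma with all genes so scaled (adjusted p = 0.146 for PSMB9, and 0.111 for PSME1).

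**Figure D4:**
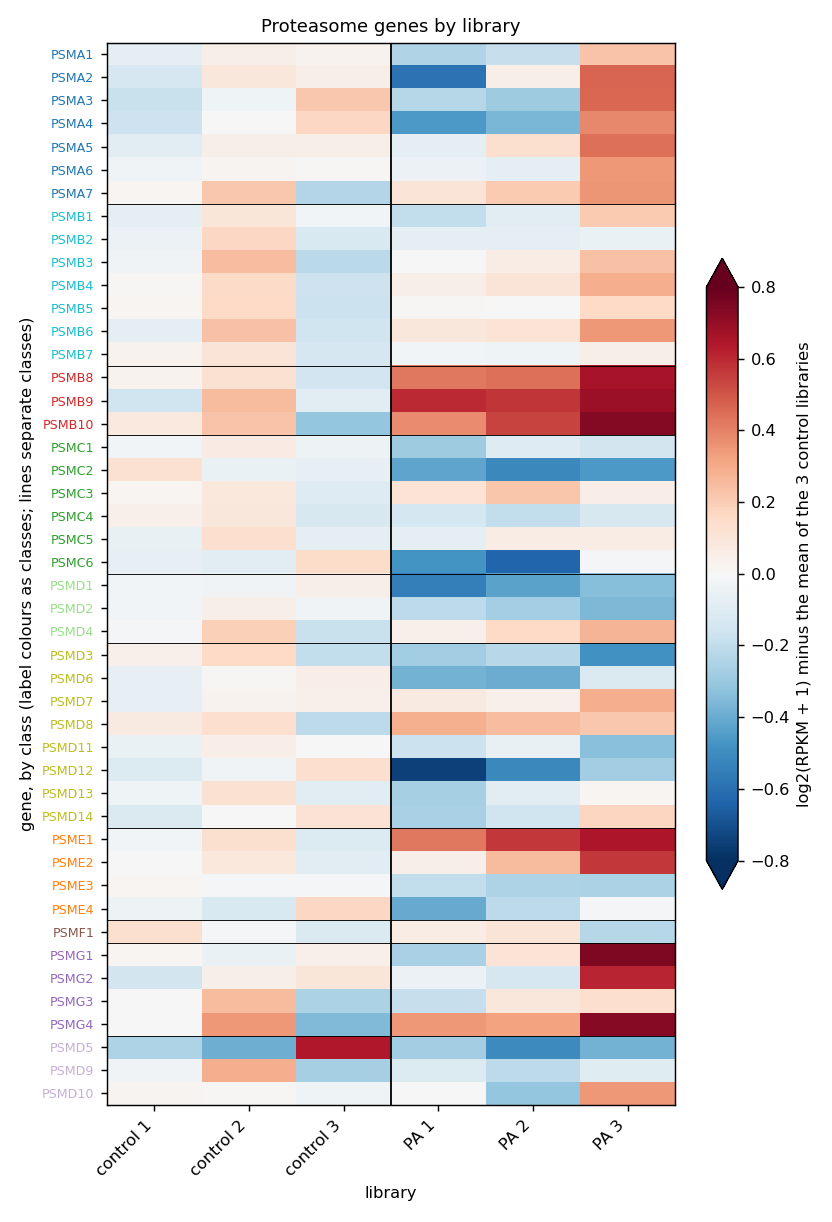
Log2(RPKM + 1) of each tested proteasome gene (rows, by class) in each library (columns), minus the mean of the 3 control libraries. All 7 alpha ring genes are highest in PA 3, whereas the immunoproteasome genes are high and PSMC2 and PSMD1 low in all 3 PA libraries.

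The regulatory particle was lower in part. Of its 17 base and lid genes, PSMC2 and PSMD1 fell, 11.8%, where 1.97% of all genes did so, and none rose. Negative values were found in 12 of the 17 and in 7429 of all 14159 genes tested. In 9 of the 17 all PA values lay below all control values, where 15.9% of all genes did so, and in 2 they lay above, where 16.7% did. The median of -0.18 was -0.21 to -0.14 over the fits that left out a library and -0.21 with the trend on length and GC content taken out. Rescaling to a common sum moved it to -0.28, while the median of all genes moved from -0.019 to -0.11. Summed RPKM of base and lid came to 81.7%, 77% and 82.1% of the summed core in control and 76.8%, 75.7% and 64.0% in PA, so that PA 1 and control 2 were nearly alike and PA 3, with its high alpha ring, stood lowest.

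Among the base ATPases, PSMC2 was at 100.2, 88.8 and 87.8 RPKM in control and 68.4, 64.0 and 66.7 RPKM in PA. Its mean fell from 92.3 ± 6.86 to 66.4 ± 2.21 RPKM (-0.47 ± 0.10 on the log2 scale, limma adjusted p = 0.0426). All PA libraries were below all control libraries. PSMC6 averaged 88.9 ± 8.3 RPKM in control libraries and 69.4 ± 16.4 RPKM with PA, with PA 3 inside the control range (-0.37 ± 0.17, limma adjusted p = 0.207). PSMC3 had the highest fold change of the ring, 0.13 ± 0.10 (limma adjusted p = 0.455), at 188.7 ± 12.5 and 206.3 ± 12.7 RPKM. PSMC1 (-0.18) and PSMC4 (-0.16) had groups apart without passing, and PSMC5 was at 0.013. The groups of PSMC4 were barely apart, with 87.31 RPKM in control 3 and 87.26 RPKM in PA 3. In GENCODE 29 exons of NRDE2 on the opposite strand cover 75.8% of the exon bases of PSMC1. NRDE2 averaged 4.44 ± 0.321 RPKM in control libraries and 3.8 ± 1.04 RPKM with PA (-0.20, limma adjusted p = 0.505).

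PSMD1, the large scaffold of the base, was at 68.0, 67.5 and 71.3 RPKM in control and 46.9, 51.0 and 54.1 RPKM in PA. Its mean fell from 68.9 ± 2.06 to 50.7 ± 3.6 RPKM (-0.44 ± 0.10 on the log2 scale, limma adjusted p = 0.0493). The groups were far apart relative to their spread. PSMD2, the other large scaffold, where ubiquitin shuttles dock, averaged 244.2 ± 6.93 RPKM in control libraries and 200.9 ± 10.8 RPKM with PA, also apart (-0.28 ± 0.09, limma adjusted p = 0.114). PSMD4, a ubiquitin receptor at the joint of base and lid, was at 188.1 ± 24.1 and 209.1 ± 16.9 RPKM (0.16 ± 0.12, limma adjusted p = 0.453).

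In the lid 0 of 8 genes passed limma. An unadjusted p below 0.05 was found in 3, 37.5% against 25.9% of all genes. Negative values were found in 6 of the 8, and in 7429 of all 14159 genes tested. PSMD12, a scaffold subunit of the lid, had the lowest fold change of all proteasome genes. It was at 110.0, 116.4 and 130.2 RPKM in control and 70.4, 82.6 and 97.5 RPKM in PA. The groups were apart, but the spread in PA was wide and the log2 fold change of -0.51 ± 0.14 missed the threshold (limma adjusted p = 0.0721, from 0.0405 to 0.211 over 17 alternative fits). The lid subunits PSMD3 (-0.33), PSMD6 (-0.30) and PSMD11 (-0.19) also had all PA values below control. PSMD14, the enzyme that cuts ubiquitin off the substrate, averaged 100.8 ± 8.29 RPKM in control libraries and 95.9 ± 15.6 RPKM with PA (-0.081), and PSMD13 was at -0.11. PSMD8 went the other way, from 244.2 ± 30.2 RPKM in control to 288.8 ± 7.35 RPKM in PA with the groups apart (0.25 ± 0.12, limma adjusted p = 0.221), as did PSMD7 (0.13 ± 0.11, limma adjusted p = 0.452). The groups of PSMD7 were barely apart, with 173.79 RPKM in control 3 and 173.83 RPKM in PA 2.

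Of the assembly chaperones 0 of 7 passed limma and 1 had an unadjusted p below 0.05, PSMG4. PSMG4, which with PSMG3 helps alpha subunits into a ring, was at 31.6, 40.3 and 24.4 RPKM in control and 40.4, 39.7 and 52.9 RPKM in PA. Control 2 lay between the PA values, and the log2 fold change was 0.47 ± 0.19 (limma adjusted p = 0.176). It shares 174 exon bases, 1.67% of its own, on opposite strands with TUBB2B. TUBB2B rose from 10.3 ± 0.325 to 16.5 ± 0.948 RPKM (0.63, limma adjusted p = 0.0255). PSMG3 itself was at 31.8 ± 5.71 and 31.9 ± 3.8 RPKM (0.014 ± 0.15, limma adjusted p = 0.966). PSMG1 and PSMG2, which form the other dimer of core chaperones, were highest in PA 3. PSMG1 was at 77.7, 74.1 and 79.1 RPKM in control and 64.1, 82.9 and 129.8 RPKM in PA, and its fold change turned from 0.20 to -0.077 without PA 3, as that of PSMG2 did from 0.14 to -0.093.

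Among the chaperones of the base, PSMD5 was at 28.2, 25.4 and 53.0 RPKM in control and 27.6, 23.4 and 25.6 RPKM in PA. Control 3 stood alone above the other 5 libraries, and the log2 fold change of -0.39 ± 0.25 (limma adjusted p = 0.36) was -0.07 without that library. PSMD9 (-0.14 ± 0.15) and PSMD10 (0.012 ± 0.16) did not pass either, with limma adjusted p-values of 0.584 and 0.972.

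Fold change went with transcript length among the proteasome genes. Over the 46 genes Spearman's rho of log2 fold change with median transcript length was -0.56, and with GC content 0.48, as a description across genes that share libraries; over all 13481 tested genes with a length the values were -0.22 and 0.24. Transcripts of the constitutive core (median 890 nt) and the immunoproteasome (878 nt) were shorter than those of base and lid (1357 nt). Median GC content was 56.1% in the immunoproteasome, 47.2% in the core and 48.8% in base and lid. With the trend on length and GC content taken out of every library, PSMB8, PSMB9 and PSME1 were higher and PSMC2, PSMD1, PSMD3, PSMD6 and PSME3 were lower past the threshold, when 1893 of all genes passed, 14% (7.45% higher and 6.59% lower), and the class medians were 0.44 for the immunoproteasome, 0.012 for the core and -0.21 for base and lid.

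**Figure D5:**
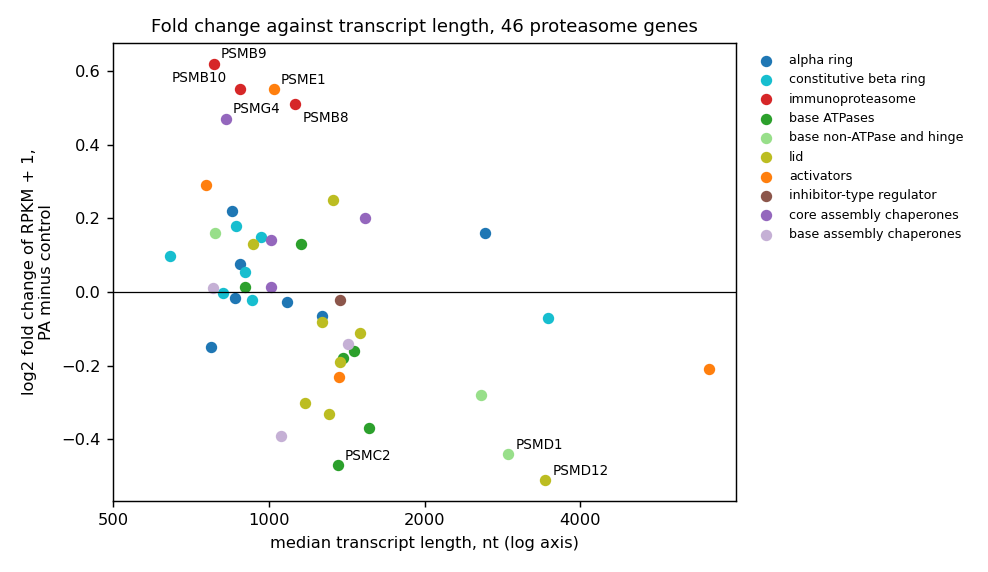
Log2 fold change of RPKM + 1 (y axis, PA minus control) against median transcript length in nt (x axis, log scale) for 46 proteasome genes, coloured by class. Among the long transcripts PSMD1 and PSMD12 lie low, whereas PSMB2 is at -0.07, PSMA5 at 0.16 and PSME4, the longest, at -0.21. The immunoproteasome genes stand above core genes of like length.

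Genes that work with the proteasome were read from lists. Of 12 proteasome-linked factors, 0 passed limma and 1 had an unadjusted p below 0.05, with a median of -0.12. That gene was PAAF1, a chaperone of the base, at 11.3 ± 1.28 RPKM in control libraries and 16.3 ± 0.57 RPKM with PA (0.50 ± 0.12, limma adjusted p = 0.0512). POMP, which matures the core, was at 101.9 ± 9.76 and 95.5 ± 36.2 RPKM (-0.15), and ADRM1, a ubiquitin receptor of the base, was at 0.16. Of 12 tested ubiquitin shuttles and p97 factors 0 passed, with 1 higher and 3 lower at an unadjusted p below 0.05 and a median of -0.18. VCP, the p97 ATPase that extracts ubiquitinated proteins, averaged 174.2 ± 7.54 RPKM in control libraries and 128.2 ± 11.1 RPKM with PA, with the groups apart (-0.44 ± 0.10, limma adjusted p = 0.0532). Of 6 ubiquitin and E1 genes 0 passed and 1 had an unadjusted p below 0.05, UBA6 (-0.49), an E1 enzyme.

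Among 12 genes that control proteasome gene expression 0 passed limma and 2 had an unadjusted p below 0.05. NFE2L1, the transcription factor that raises proteasome genes when proteasomes are inhibited, averaged 118.5 ± 5.37 RPKM in control libraries and 123.8 ± 32.9 RPKM with PA, with PA 1 highest and PA 3 lowest of all libraries (0.027 ± 0.19, limma adjusted p = 0.945). The 11 tested genes of interferon control had 0 past limma, 1 higher and 2 lower at an unadjusted p below 0.05, and a median of 0.019. IRF1, the factor through which interferon raises the immunoproteasome genes, was at 27.6, 27.5 and 23.5 RPKM in control and 23.8, 19.1 and 17.8 RPKM in PA. The groups overlapped, and the log2 fold change of IRF1 was -0.36 ± 0.14 (limma adjusted p = 0.146). NLRC5, the class I transactivator, was at -0.50 (limma adjusted p = 0.106). IFNGR2 (0.26, limma adjusted p = 0.134, groups apart) and IRF9 (0.26, limma adjusted p = 0.305, groups overlapping) went the other way. Of the 11 genes 6 had positive and 5 had negative values.

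TAP1, the peptide transporter gene that lies between PSMB8 and PSMB9 on chromosome 6, was at 27.4, 29.6 and 27.4 RPKM in control and 34.9, 34.5 and 34.6 RPKM in PA. The groups were apart, yet its log2 fold change of 0.29 ± 0.09 did not pass (limma adjusted p = 0.107), nor did any of the 11 class I presentation genes, of which 4 were higher and 1 lower at an unadjusted p below 0.05.

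Leukocytes hold much immunoproteasome. Of 10 leukocyte markers listed, 9 were examined and 5 passed the filter; 1, CD14, rose (0.72, limma adjusted p = 0.0288), and the summed RPKM of the 9 was 48.4 to 59.5 in control and 70.5 to 82.1 in PA, mostly from CD68, which did not pass (0.45, limma adjusted p = 0.0821). Of the other tested markers LST1 was at 0.62 (limma adjusted p = 0.172), LCP1 at 0.15, and CORO1A at -0.27 with all PA values below control (limma adjusted p = 0.298). The defining markers PTPRC and CD3E were at most 0.06 RPKM in every library. Of 10 fibroblast markers examined, 8 were tested and 2 of them fell, COL3A1 and FAP. COL1A1 averaged 299.2 ± 27.8 RPKM in control libraries and 138.7 ± 51.6 RPKM with PA, with the groups apart. Its log2 fold change of -1.18 missed the threshold (limma adjusted p = 0.051). COL1A2, at 0.18, was the only 1 of the 8 with a positive value. The summed RPKM of the 10 was 2676 to 3182 in control and 2465 to 2561 in PA, mostly from VIM, which averaged 2332 and 2065 RPKM. Of 5 endothelial markers examined, the 2 that passed the filter rose, TIE1 and EGFL7. The summed RPKM of the 5 was 27.5 to 40.4 in control and 56.0 to 60.2 in PA, mostly from EGFL7, which averaged 27.7 and 47.1 RPKM. CDH5 and VWF were at most 0.18 RPKM, and KDR averaged 0.817 RPKM in control libraries and 0.88 RPKM with PA, with overlapping groups. The part of these markers in the results on the proteasome was not tested.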

How the data were processed

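Messenger RNA of AC16 cells was sequenced, with 1 table of RPKM per library, deposited by the authors with 2 decimals. The tools HISAT2, StringTie, RSEM, fastp and FastQC and the genome build hg19 are listed, with neither role nor version, per the submitters' processing notes. These sources do not state the gene models, the use of strand or what was done with reads of more than 1 match. RPKM is no count, so a two-sided test with limma 3.58.1 (R 4.3.3; eBayes with a variance trend) was run on log2(RPKM + 1), without covariates, over rows with a mean RPKM of at least 1, with Benjamini-Hochberg adjustment over all of them and a threshold of 0.05. Fold changes on this scale understate those of low genes. Ratios were tested by exact permutation in SciPy 1.17.1. Transcript lengths, GC contents and exon overlaps came from GENCODE 29, which is built on another assembly than hg19 and was matched by Ensembl identifier (28380 of 29638 rows, all 47 proteasome genes); promoter sequences came from RefSeq on GRCh38.p14. The test was first run on simulated data with known changes, in 10 runs with 200 changed genes each. It recovered 9.63% of changes of 0.5 on the log2 scale, 69.1% of changes of 1 and 93.1% of changes of 2. Of its calls 3.99% were false. In the simulation the test thus had little power at the size of most fold changes given here. Each run changed 200 genes, whereas 681 passed in the data, so these rates need not hold for the data. A gene that did not pass is not shown to be unchanged.

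Full values were given for members past the threshold, for the catalytic subunits and their replacements, for PSME1 and PSME2, and for the highest and lowest fold change of each class. Other members and overlapping genes were named after their values were seen. The members, classes and lists were chosen with earlier results of these data known. Alternatives covered pseudocount, filter, scaling, variance trend, replicate block, gene type, length and GC content, each library left out, and a stricter threshold.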

Additional observations from a re-analysis of the deposited data

How the results depend on the processing

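The counts of calls depended on most settings. Beside 2 proteasome genes higher and 2 lower, with 402 and 279 of all genes, the numbers were as follows. Without a filter on low values 0 were higher and 0 lower (35 and 37 of all genes), and at an adjusted p of 0.01 also 0 and 0 (11 and 18). Rescaling to a common sum gave 1 higher and 3 lower (207 and 324 of all genes). Of all calls, 39.0% were then higher in PA, against 59.0%. Quantile normalization gave 3 higher and 4 lower (507 and 348 of all genes). A pseudocount of 0.1 gave 2 and 1 (433 and 299), and eBayes without trend gave 1 and 0 (344 and 263). Protein-coding genes alone gave 3 and 3 (678 and 479), and removal of the length and GC trend gave 3 and 5 (1004 and 889). Scaling to the constitutive core, chosen after seeing the data, gave 0 and 0 (17 and 30). With the replicate number as a block, 0 and 0 proteasome genes passed (42 and 56 of all genes); deviations of same-numbered libraries correlated at 0.157, -0.014 and 0.037, so the numbers were not taken as pairs, and not every library correlated best with its own number. Leaving out each library gave 0 higher in every fit and 0 to 2 lower, with 4 to 181 of all genes higher and 6 to 183 lower; these fits have fewer samples. The log2 ratios of PSMB8 to PSMB5, PSMB9 to PSMB6 and PSMB10 to PSMB7 kept their direction in every alternative run, with the block (exact p = 0.25, the smallest 3 pairs allow) included.

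None of the 4 called genes changed sign in the 17 alternative fits. Of the 46 members, 6 changed sign when rescaled to a common sum, 6 after quantile normalization, 7 without the length and GC trend, 3 scaled to the core, and 3 to 7 when a library was omitted. Among these, PSME4 went from -0.21 to 0.0037 without the trend and PSMB4 from 0.15 to -0.011 after quantile normalization. Of the members given full values, those that turned were at -0.053 (PSMB5), -0.094 (PSMD10) and -0.090 (PSMG3) when rescaled, after quantile normalization -0.030 for PSMB5 and -0.033 for PSMD10, without the length and GC trend -0.011 for PSMB5, 0.060 for PSMB2 and -0.089 for PSMG3, and scaled to the core -0.031 for PSMD10 and -0.028 for PSMG3. Over fits that each omitted a library the log2 fold change ran from -0.41 to 0.0094 for PSMA4, -0.13 to 0.012 for PSMB2, -0.034 to 0.13 for PSMB5, -0.069 to 0.051 for PSMB7, -0.16 to 0.17 for PSMD10, -0.083 to 0.081 for PSMF1 and -0.11 to 0.14 for PSMG3. The cause was not tested. Depth is unknown, and 3 libraries a group limit the precision of each value.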

Other observations

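PSMA3-AS1, an antisense neighbour of the alpha subunit gene PSMA3 and not a proteasome gene, was picked out after its values were seen. It was at 14.3, 13.6 and 15.4 RPKM in control and 7.44, 9.67 and 10.3 RPKM in PA, with the groups apart, and it fell by 0.61 on the log2 scale (SE 0.14, limma adjusted p = 0.0475), whereas PSMA3 itself was at -0.017 ± 0.21. The pseudogene row PSMC1P1 averaged 5.71 ± 1.51 RPKM in control libraries and 5.06 ± 1 RPKM with PA (log2 fold change -0.14, limma adjusted p = 0.683). The other rows named as proteasome pseudogenes were at most 0.62 RPKM in every library.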
